A study of Mus musculus with 2 samples.

Results

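The miRNAs described here come from 5 hairpins, miR-431, miR-433, miR-127, miR-434 and miR-136, that lie antisense to the imprinted gene Rtl1 in the Dlk1-Dio3 region of mouse chromosome 12. They were chosen by genomic position, and both arms (5p and 3p) of each hairpin were taken, which gave 10 of the 1358 mature miRNAs listed. The samples were retinas taken at postnatal day 0 from wild-type mice of CD-1, an outbred strain. They formed 1 group with 2 small RNA libraries, numbered replicate 1 and replicate 2, and no treated, mutant or other reference group was present. The labels do not say whether separate animals or litters gave the 2 replicates, and the SDs may therefore hold technical variation only. Per the title, the profile belongs to a study of how miR-216b and Foxn3 regulate the making of retinal amacrine cells.

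Rtl1 encodes a protein derived from a retrotransposon and is expressed from the paternally inherited chromosome. The opposite strand is transcribed from the maternally inherited chromosome, and the miRNAs cut out of that transcript pair perfectly with Rtl1 mRNA, so that Argonaute can cleave it. In the mouse this pair is best known from the placenta, where Rtl1 is needed for the fetal capillaries, and miRNAs of the region as a whole are also known from brain and other neural tissue. The libraries do not separate the parental alleles, and Rtl1 mRNA was not measured in them.

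The libraries held 8337902 counts in replicate 1 and 8118208 counts in replicate 2. The 5 markers of neural retina ranged from miR-124-3p at 649 ± 73.9 CPM (counts per 1000000 counts of the table, computed here; SD, n = 2) to miR-9-5p at 227199 ± 1685 CPM. The 12 markers of pigment epithelium, lens and surface epithelium, endothelium, muscle, red cells and liver had sums of 5790 CPM (replicate 1) and 5007 CPM (replicate 2), mostly from miR-204-5p at 3389 ± 558 CPM. The other marker in the pigment epithelium list, miR-211-5p, was at only 5.62 ± 0.453 CPM, so the 2 markers of that list differed widely. miR-204-5p, miR-126a-3p of endothelium (905 ± 90.9 CPM) and miR-184-3p of lens and surface epithelium (804 ± 92.8 CPM) were each above the neural marker miR-124-3p. In the lens and surface list miR-203-3p was also present, at 121 ± 0.802 CPM, and miR-205-5p had 0 counts in both libraries, where the limit that 3 counts would set was 0.360 CPM for replicate 1 and 0.370 CPM for replicate 2. The part of these other cells in the levels below was not tested, and in whole retina a level reflects both the number of cells and the RNA per cell.

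The 10 mature sequences are shown because their seeds, the bases that pair with most targets, and their 5′ ends are what the later results turn on. All 10 were matched by name to RefSeq (GRCm38.p6), and each occurred in a single RefSeq hairpin. They are written 5′ to 3′, with the seed (bases 2 to 8) in capitals.
miR-431-5p: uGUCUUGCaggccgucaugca
miR-431-3p: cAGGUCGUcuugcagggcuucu
miR-433-5p: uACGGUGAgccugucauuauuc
miR-433-3p: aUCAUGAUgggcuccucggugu
miR-127-5p: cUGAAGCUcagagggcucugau
miR-127-3p: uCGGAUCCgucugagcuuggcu
miR-434-5p: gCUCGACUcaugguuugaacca
miR-434-3p: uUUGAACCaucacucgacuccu
miR-136-5p: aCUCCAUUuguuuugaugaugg
miR-136-3p: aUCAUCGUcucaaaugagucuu

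The 10 seeds were all different, and none was shared with any other of the 1679 mature miRNA names in the RefSeq table. The arms thus form no seed family, either with each other or with miRNAs elsewhere in the genome. Their GC content ran from 36.4% in both arms of miR-136 to 59.1% in miR-431-3p and miR-127-3p. All 20 counts of these arms, 10 in each library, were whole numbers, whereas 6.77% of the values in replicate 1 and 5.96% of those in replicate 2 over the whole table were fractional. How the authors' counting gave fractional values is not stated.

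The hairpins lay within 4942 bases of the plus strand, with 727 to 1590 bases between neighbours. All 5 fell opposite exon 2 of Rtl1, which is on the minus strand, and wholly within its coding sequence of 1744 codons (GENCODE M21, GRCm38). Mir431, at chr12:109590447-109590537, lay opposite codons 1623 to 1653 near the end of the reading frame. Mir433, at chr12:109591715-109591838, lay opposite codons 1189 to 1230. Mir127, at chr12:109592846-109592915, lay opposite codons 830 to 853, and Mir434, at chr12:109594506-109594599, opposite codons 269 to 300. Mir136, at chr12:109595327-109595388, lay opposite codons 6 to 26, close to the start codon. Other than the hairpins themselves, no plus-strand transcript is annotated across them in that release. Each hairpin and each of the 10 mature sequences was found exactly 1 time in the reverse complement of the Rtl1 transcript. The sites of the most abundant arm of miR-434 and of miR-127 in the Rtl1 coding strand illustrate this full pairing, opposite codons 285 to 292 for miR-434-5p and 832 to 839 for miR-127-3p.
Rtl1 site for miR-434-5p: tggttcaaaccatgagtcgagc
Rtl1 site for miR-127-3p: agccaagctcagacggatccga

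A further hairpin, Mir3071, is annotated on the minus strand at chr12:109595318-109595397 and covers the whole of Mir136. Mir432 is annotated on the plus strand at chr12:109594956-109595030, between Mir434 and Mir136. Neither is analysed here.

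All 5 hairpins gave counts from both arms in both libraries, and their levels differed widely although they are thought to be cut from a common transcript. Together the 10 arms held 37140 counts in replicate 1 and 30061 in replicate 2, a share of 0.408% ± 0.0531 of all counts (SD, n = 2). miR-434 was the highest hairpin, whose arms had sums of 2861 CPM (replicate 1) and 2291 CPM (replicate 2), which was 63.1% of the level of the 5 hairpins. It was followed by miR-433 at 864 and 677 CPM, miR-127 at 546 and 577 CPM, miR-136 at 147 and 132 CPM and miR-431 at 37.2 and 25.5 CPM. miR-434 exceeded miR-431 83.1-fold (log2 ratio 6.38 ± 0.16, SD, n = 2). Along the reading frame of Rtl1 the levels followed no single order, since miR-431, the lowest, and miR-136, the next lowest, lay at opposite ends, and miR-434, the highest, was the neighbour of miR-136.

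Between neighbours in the order of hairpin levels, miR-434 exceeded miR-433 by 3.35-fold (log2 ratio 1.74 ± 0.022), miR-127 exceeded miR-136 by 4.04-fold (2.01 ± 0.16) and miR-136 exceeded miR-431 by 4.52-fold (2.18 ± 0.28). These 3 differences had the same sign in both libraries and were larger than 2 SD. The log2 ratio of miR-433 over miR-127 was 0.66 in replicate 1 and 0.23 in replicate 2, and their mean of 0.45 ± 0.31 was within 2 SD. Ratios between different miRNAs also hold the yield of adapter ligation for each sequence.

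**Figure D1:**
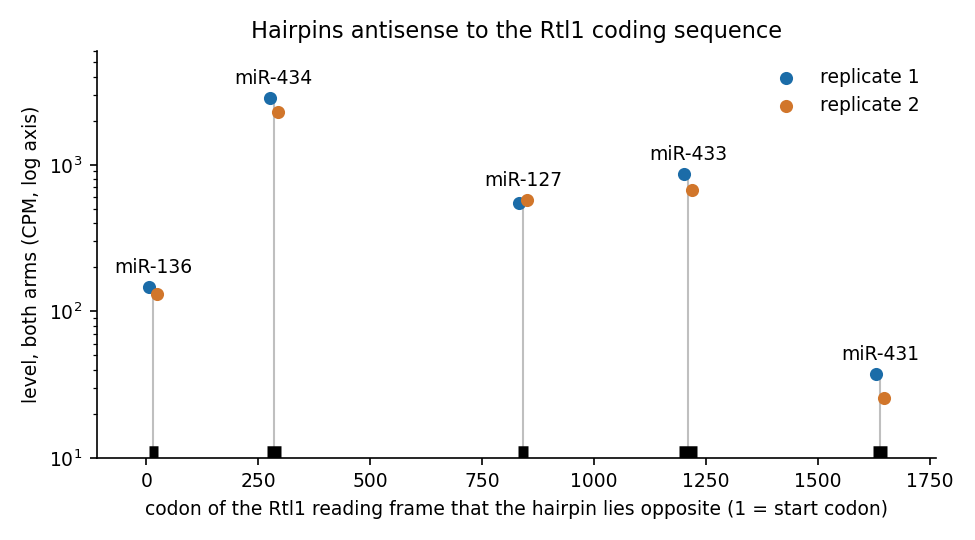
Level of each hairpin, summed over both arms, in CPM on a log axis, against the codons of the Rtl1 reading frame that the hairpin lies opposite. Black blocks mark the extent of each hairpin and points, set slightly apart sideways, the 2 libraries; miR-434 stands highest in both libraries and miR-431 lowest.

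miR-434-5p led the arms, with 20051 counts in replicate 1 and 15491 in replicate 2, or 2405 and 1908 CPM. Its mean of 2157 ± 351 CPM placed it 46th of the 1358 miRNAs, and it alone made up 52.8% ± 1.74 of the counts of the 10 arms. The authors' deposited CPM, which is scaled to a larger library total, was 2129.3 and 1688.7 for this arm. Its partner arm miR-434-3p had 3800 and 3105 counts, a mean of 419 ± 51.8 CPM and rank 104.

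miR-433-3p was second, with 7171 counts in replicate 1 and 5469 in replicate 2, at 767 ± 132 CPM and rank 86. miR-433-5p was among the lowest of the arms, with 33 and 29 counts and a mean of 3.77 ± 0.273 CPM. Counting error alone was 17.4% and 18.6% at this depth.

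miR-127-3p, the arm of miR-127 that most studies refer to, had 4265 counts in replicate 1 and 4429 in replicate 2. Its mean was 529 ± 24.1 CPM, at rank 98, with a coefficient of variation of 4.55% between the libraries. miR-127-5p had 288 and 259 counts, a mean of 33.2 ± 1.86 CPM and rank 262.

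The arms of miR-136 were close to each other. miR-136-5p had 626 counts in replicate 1 and 472 in replicate 2, at 66.6 ± 11.98 CPM, and miR-136-3p had 596 and 600 counts, a mean of 72.7 ± 1.72 CPM. They held ranks 201 and 197. Scaled by table totals, the libraries lay close together for miR-136-3p, and further apart for miR-136-5p, whose lower value was that of replicate 2.

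miR-431, which in the mouse has been studied in the regrowth of sensory axons, was the least abundant hairpin. miR-431-5p had 283 counts in replicate 1 and 186 in replicate 2, at 28.4 ± 7.80 CPM and rank 274, and its coefficient of variation of 27.4% was the widest of the 10 arms. miR-431-3p had 27 and 21 counts and a mean of 2.91 ± 0.461 CPM. Its exact binomial 95% interval ran from 2.13 to 4.71 CPM in replicate 1 and from 1.60 to 3.95 CPM in replicate 2.

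The median level of the 10 arms was 69.7 CPM, beside 3.65 CPM over the 924 miRNAs detected in both libraries. At least 100 CPM was reached by 4 of the 10 arms, against 13.3% of all 1358 miRNAs. miR-434-5p, the highest arm, exceeded miR-431-3p, the lowest, 725-fold (log2 ratio 9.50 ± 0.012). Of the 9 steps between neighbours in the order of levels, 5 were larger than 2 SD with the same sign in both libraries. One of them, miR-433-5p over miR-431-3p (log2 ratio 0.37 ± 0.12), rested on 33 against 27 and 29 against 21 counts, and the exact binomial intervals of these arms overlapped in both libraries, so it was not resolved at this depth. The steps that were not were miR-433-3p over miR-127-3p (log2 ratio 0.53 ± 0.31), miR-127-3p over miR-434-3p (0.34 ± 0.24), miR-136-3p over miR-136-5p (0.14 ± 0.29) and miR-127-5p over miR-431-5p (0.25 ± 0.32).

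**Figure D2:**
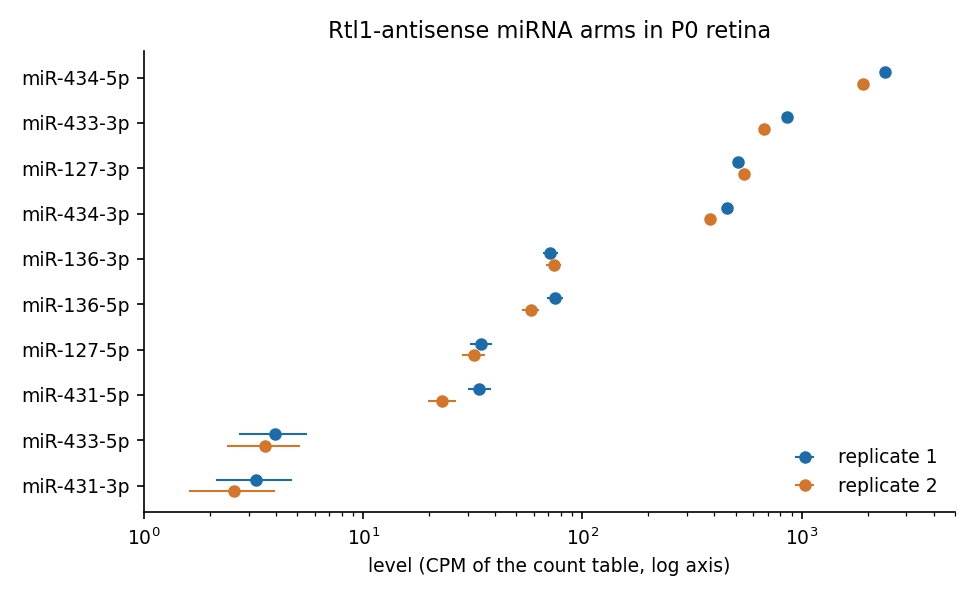
Level of each arm in CPM on a log axis, ordered from the highest at the top to the lowest. Points are the 2 libraries and bars exact binomial 95% intervals, which cover counting error only; miR-434-5p lies at 2405 and 1908 CPM and miR-431-3p at 3.24 and 2.59 CPM.

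The hairpins did not share a preferred arm. The 5p arm was the higher arm in miR-431 and miR-434, the 3p arm in miR-433 and miR-127, and miR-136 used both arms. In each library the counts of the arms were tested for equality (two-sided exact binomial test, Benjamini-Hochberg over 312 hairpins). A hairpin was called when the adjusted p was below 0.05 and the direction alike in replicates 1 and 2, and when the mean log2 ratio of 5p over 3p was larger than 2 SD. It was called in 4 of the 5 hairpins, against 89.4% of the 312 hairpins tested, so that a called difference is the usual state of a hairpin here.

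miR-433 was the most one-sided, with 33 counts of the 5p arm against 7171 of the 3p arm in replicate 1 and 29 against 5469 in replicate 2. The mean log2 ratio was -7.64 ± 0.15, or 199-fold in favour of the 3p arm. In miR-127 the 5p arm gave 6.33% of the counts in replicate 1 and 5.52% in replicate 2, a log2 ratio of -3.99 ± 0.15. For miR-431 the 5p arm held 91.3% and 89.9% (log2 ratio 3.24 ± 0.18; adjusted p = 1.17e-54 and 6.12e-34, exact binomial test). For miR-434 it held 84.1% and 83.3%, a log2 ratio of 2.36 ± 0.057, so the lower arm of this hairpin was still more abundant than either arm of miR-136 or miR-431.

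In miR-136 the 3p arm was the higher arm in replicate 2, and neither arm passed the test in replicate 1. Its 5p arm held 51.2% of the counts in replicate 1 and 44.0% in replicate 2, with log2 ratios of 0.071 (adjusted p = 0.422, exact binomial test) and -0.35 (adjusted p = 0.000128, exact binomial test). The mean of -0.14 ± 0.29 was within 2 SD, and no difference was called. A comparison of the arm ratio between the libraries, which does not depend on the scaling of the libraries, was added after the values were seen. In that test the arm ratio of miR-136 differed (adjusted p = 0.00883, Fisher's exact test with Benjamini-Hochberg adjustment over 312 hairpins), as it did in 8.65% of all hairpins. For the other 4 hairpins the adjusted p of this exact test ranged from 0.255 to 1.

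By a 4-fold ratio in both libraries, 2 of the 5 hairpins were dominated by the 5p arm and 2 by the 3p arm, beside 40.4% and 36.9% of all hairpins tested. The median absolute log2 ratio was 3.24 in the 5 hairpins and 4.59 over all 312.

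**Figure D3:**
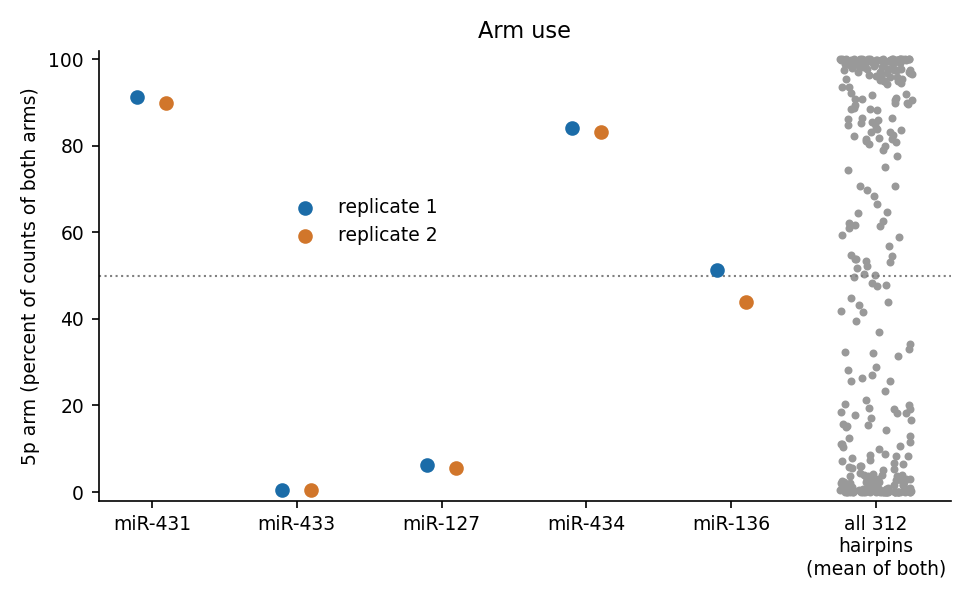
Share of the 5p arm in the counts of both arms of each hairpin, in percent, with the 2 libraries as coloured points. Grey points are the mean share of each of the 312 hairpins tested, these 5 included, and the dotted line marks equal use; miR-433 lies at 0.458% and 0.527% and miR-136 at 51.2% and 44.0%.

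Arms within a hairpin resembled each other in sequence to different degrees. The longest run shared by both arms was 10 bases in miR-431, 9 bases in miR-434, 5 bases in miR-433 and miR-127 and 4 bases in miR-136. In miR-434 the run UUUGAACCA stood from base 14 of the 5p arm and from base 1 of the 3p arm, where it holds the 3p seed, and it occurred 3 times in the hairpin, shown here with the run in capitals.
Mir434 hairpin: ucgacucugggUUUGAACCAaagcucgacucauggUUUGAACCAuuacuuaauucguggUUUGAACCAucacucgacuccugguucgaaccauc

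In miR-431 the shared run began at base 2 of the 5p arm, and so includes the 5p seed, and at base 7 of the 3p arm. Only the longest run was searched for, and shorter runs can be shared as well. In miR-434 both arms also hold CUCGACUC, which includes the 5p seed. Each full mature sequence occurred in a single hairpin.

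The most frequent read of each arm was compared with the annotated mature sequence, since the 5′ end sets the seed. It started at the annotated base in both libraries in 7 of the 10 arms, among them the higher arm of miR-431, miR-433, miR-127 and miR-434. In the other 3 arms, miR-431-3p, miR-127-5p and miR-136-3p, it was shifted in both libraries. Among miRNAs detected in both libraries 14.7% had such a shift, and among those at 10 CPM or more 9.32%, where 2 of the 8 arms that reach this level had it. The deposited table gives only the most frequent sequence and not the share of reads that it holds. In 9 of the 10 arms it was the same sequence in both libraries.

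The shifted reads are shown because each carries another seed, in capitals, than its annotated sequence above.
miR-127-5p read, both libraries: gAAGCTCAgagggctctgattc
miR-136-3p read, both libraries: cATCATCGtctcaaatgagtct
miR-431-3p read, replicate 1: tGCAGGTCgtcttgcagggct
miR-431-3p read, replicate 2: tGCAGGTCgtcttgcagggcttc

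The miR-127-5p read started 2 bases later than annotated and ended 2 bases later. The miR-136-3p read started 1 base earlier and ended 1 base earlier. The miR-431-3p read started 2 bases earlier in both libraries, and its 3′ end lay 3 bases short of the annotated end in replicate 1 and 1 base short in replicate 2, from 27 and 21 counts. None of the seeds of these 3 reads was shared with an annotated mature miRNA in the RefSeq table or with the most frequent read of another listed miRNA. In miR-136, where both arms were used, the reads of both arms stand in capitals in the hairpin.
Mir136 hairpin: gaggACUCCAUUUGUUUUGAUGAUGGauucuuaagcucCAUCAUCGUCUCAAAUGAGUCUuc

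At the 3′ end, the reads of miR-431-5p, miR-433-5p, miR-433-3p and miR-136-5p ended at the annotated base, so 4 of the 10 arms matched their annotation in full. Both arms of miR-434 ended 1 base earlier. The most frequent miR-127-3p read carried 1 further base after its annotated end in both libraries, and this base is not that of the hairpin (G23T, positions counted from 1 at the 5′ end of the read, hairpin base first). The seed of this read is unchanged.
miR-127-3p read, both libraries: tCGGATCCgtctgagcttggctt

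Within the Dlk1-Dio3 region, the hairpins antisense to Rtl1 were mostly among the higher ones. The region was represented by 53 hairpin names. Of these, 37 were listed as the cluster from miR-379 to miR-410 and 11 as other hairpins of the region. The cluster list includes miR-3072, which lies 157 kb from the start of Mir431, beyond miR-410 at 153 kb. It also includes miR-299b (2.76 CPM in replicate 1 and 2.34 CPM in replicate 2), which lies on the minus strand, unlike the other hairpins that could be placed. The 5 Rtl1-antisense hairpins held 18.8% of the region's counts in replicate 1 and 17.6% in replicate 2. Their median level was 562 ± 22.2 CPM, beside 43.1 ± 7.26 CPM for the miR-379 to miR-410 cluster, 39.5 ± 2.64 CPM for the other hairpins and 1.52 CPM over all 887 hairpin names (SD, n = 2). At least 100 CPM was reached by 4 of the 5, beside 13 of 37, 3 of 11 and 18.3% of all hairpin names. These are descriptions without a test, and the ranges overlapped, since the miR-379 to miR-410 cluster ran from 0.182 to 3952 CPM and the Rtl1-antisense hairpins from 31.3 to 2576 CPM.

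By mean level, miR-434 was 3rd of the 53 hairpins, miR-433 10th, miR-127 13th, miR-136 18th and miR-431 31st. miR-434, at 2861 CPM in replicate 1 and 2291 CPM in replicate 2, was below miR-541 of the miR-379 to miR-410 cluster (4122 and 3783 CPM) in both libraries. Against miR-381 of that cluster (2498 and 2798 CPM) it was higher in replicate 1 and lower in replicate 2. It was above miR-379 (1829 and 1697 CPM) in both libraries. Against miR-370 (2556 and 2258 CPM), the highest of the other hairpins, it was higher in both, but the values were close in replicate 2. Whether miR-434 and miR-370 differ was not tested. The next of those other hairpins, miR-770 (244 and 237 CPM) and miR-337 (153 and 115 CPM), lay between miR-127 and miR-431 in both libraries. miR-136, at 147 and 132 CPM, was below miR-337 in replicate 1 and above it in replicate 2.

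**Figure D4:**
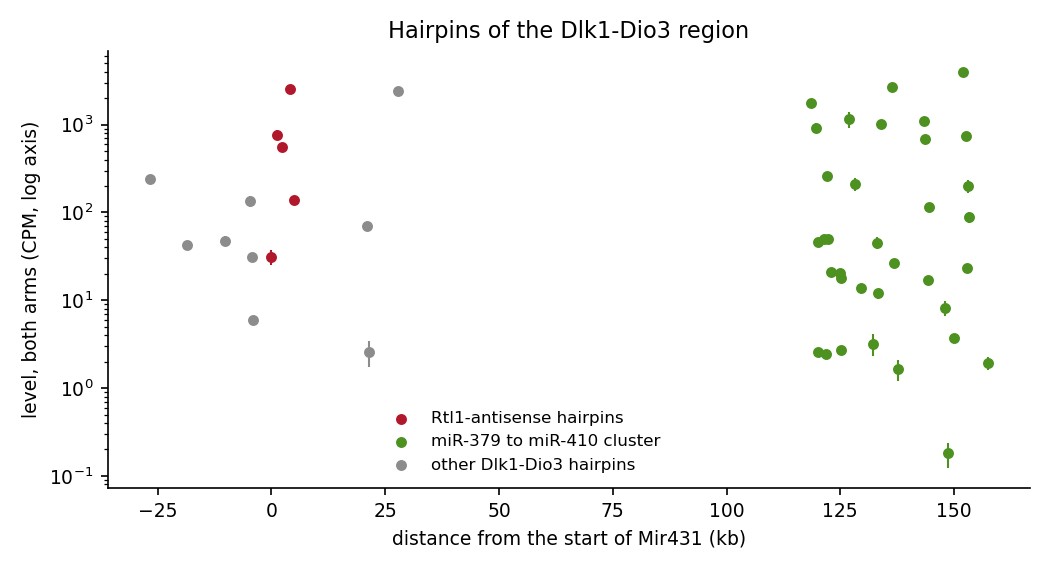
Level of the hairpins of the Dlk1-Dio3 region, summed over both arms, in CPM on a log axis, against the distance in kb from the start of Mir431. Points are means, vertical lines join the 2 libraries, and 49 of the 53 hairpin names could be placed; the Rtl1-antisense hairpins lie from 31.3 to 2576 CPM within the first 5 kb.

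Most of the abundant arms were lower in replicate 2 than in replicate 1. Libraries were compared with an exact two-sided binomial test against the share given by the table totals, with Benjamini-Hochberg adjustment over 710 miRNAs with at least 10 counts over both libraries. The test compares libraries, not conditions, and covers counting error only. It called 6 of the 10 arms, 1 higher and 5 lower in replicate 2, beside 27.9% of all miRNAs tested (8.31% higher and 19.6% lower). Among miRNAs at 100 CPM or more the share called was 78.3%, so a call at such depth is common. The called arms miR-431-5p (28.4 CPM) and miR-136-5p (66.6 CPM) lay below that level, and this share does not cover them. The median log2 ratio was -0.28 in the 10 arms and -0.12 over all miRNAs tested.

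Lower in replicate 2 were miR-431-5p (log2 ratio -0.57, adjusted p = 0.000176, exact test), miR-136-5p (-0.37, adjusted p = 0.000157, exact test), miR-433-3p (-0.35, adjusted p = 3.39e-41, exact test), miR-434-5p (-0.33, adjusted p = 8.24e-103, exact test) and miR-434-3p (-0.25, adjusted p = 3.49e-12, exact test). miR-127-3p was higher, at 545.6 CPM in replicate 2 and 511.5 CPM in replicate 1 (log2 ratio 0.093, adjusted p = 0.0117, exact test). The log2 ratios of the 4 arms that were not called were -0.32 for miR-431-3p, -0.14 for miR-433-5p, -0.11 for miR-127-5p and 0.048 for miR-136-3p. Under TMM scaling, which set the median of all miRNAs tested to -0.0037, the same 6 arms were called in the same direction, beside 15.1% of all miRNAs higher and 11.3% lower in replicate 2, with log2 ratios of -0.45 for miR-431-5p, -0.22 for miR-434-5p and 0.21 for miR-127-3p. The TMM-scaled log2 ratios of miR-136-3p, which was not called, and miR-136-5p were 0.17 and -0.25, closer in size than by table totals. The spread between the libraries beyond counting error, estimated by edgeR over all miRNAs, was a coefficient of variation of 0.104. An edgeR exact test with this spread called 0 of the 10 arms and 0 of the 710 miRNAs, and passed 0 and 31 of them at an unadjusted p below 0.05. Since the spread came from the same 2 libraries that the test compares, few calls were possible by construction, and nothing is read from these counts.

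**Figure D5:**
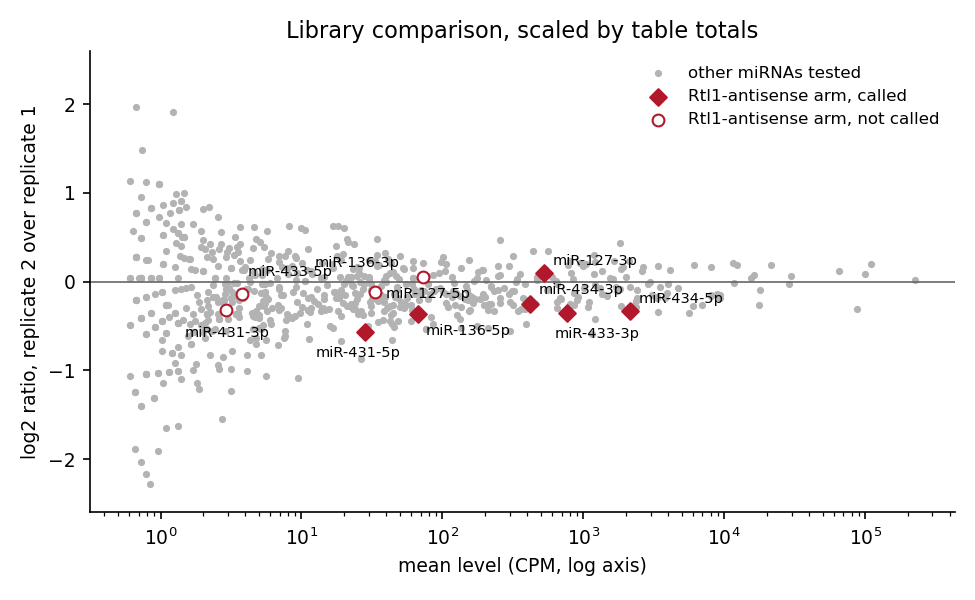
Log2 ratio of replicate 2 over replicate 1, scaled by table totals, against the mean level in CPM on a log axis for the 710 miRNAs tested. Filled diamonds are the 6 arms called by the exact binomial test and open circles the 4 that were not; the called arms lie from -0.57 for miR-431-5p to 0.093 for miR-127-3p.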

How the data were processed

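Small RNA of 18 to 30 nt was cut from a gel and ligated to adapters, per the labels' protocols, and reads were written with bcl2fastq 2.17.1.14, per the submitters' processing notes. Which aligner, counter and genome build the authors ran is not given in the sources used here. The deposited count table held estimated counts per mature miRNA; the deposited CPM table was scaled by the authors to totals that it implies to be 9416549 and 9173522. The third deposited table held the most frequent read per miRNA, marked against miRBase 21 per the file headers.

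CPM was recomputed over the table totals. Counts were rounded for tests, and 0.5 was added for log2 ratios. Sequences came from RefSeq (GRCm38.p6) and positions from RefSeq and GENCODE M21. TMM and dispersion used edgeR 4.0.16 and size factors DESeq2 1.42.0 in R 4.3.3; the rest used Python 3.11.15, SciPy 1.17.1, NumPy 2.4.6, pandas 2.3.3 and matplotlib 3.10.9. The edgeR test took its dispersion from the same 2 libraries. Tests were checked on simulated counts that held counting error only. The real libraries also differed beyond counting error, so this check does not give the error rates of the tests in these data. The members, lists and rules were chosen with earlier results of these data known. Named miRNAs were the 10 arms, miRNAs sharing a seed with them (there were none), Mir3071 and the 3 highest hairpins of each other list of the region. Cell markers were named from a fixed list. Outside this rule, Mir432 was named as an annotated neighbour, miR-3072 for its position beyond miR-410 and miR-299b for its strand. No miRNA was named for a similar pattern, since 2 libraries of 1 group cannot rank it. Intervals and errors from counts cover counting error only.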

Additional observations from a re-analysis of the deposited data

How the results depend on the processing

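With 2 libraries of 1 group, an SD is imprecise and low arms are limited by depth. No paired analysis was possible because the series has a single group. Of 173 recomputed values, 152 held. Tested values that held kept their direction and side of the threshold, and counts stayed within 1.5 times. Other values that held moved by no more than 1 SD between the libraries. For the levels, the summed share and the region medians, leaving out 1 of the 2 libraries could not break this rule. The mean of 2 values always lies within 1 SD of each, so nothing is read from those settings, although their values are among the 152. In the arm and library tests, another minimum of counts left each log2 ratio as it was and could alter only the adjusted p. The 152 is therefore not a measure of robustness. The edgeR exact test lowered the arms called between the libraries to 0, with 0 higher and 0 lower in replicate 2, by construction, since its spread was estimated from the 2 libraries it compares. The log2 ratio of miR-127-5p between the libraries, not called in any setting, was 0.0039 under TMM scaling and 0.0036 in edgeR, against -0.11 by table totals. The arm ratio of miR-136 was 0.071 without replicate 2 and -0.35, past the threshold, without replicate 1. Counting only the higher arm of each hairpin gave medians of 529 CPM for the Rtl1-antisense hairpins, 26.7 CPM for the miR-379 to miR-410 cluster and 30.8 CPM for the other hairpins of the region. With at least 10 counts in each library asked for, the median of those other hairpins was 50.9 CPM, since fewer hairpins remained. The deposited CPM lowered every arm by a similar proportion, through its larger library total. This was more than 1 SD only for the 4 arms with the smallest coefficient of variation between the libraries.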
